A study of Mus musculus with 3 samples.

Results

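The mural cells described here are the 554 barcodes of a mouse dorsal root ganglion (DRG) library that met a marker rule, of 23566 barcodes in that library and 81584 in the series. Each had 1000 to 15000 unique molecular identifiers (UMIs, counted RNA molecules) and at least 1 UMI of at least 3 of the 6 mural genes Rgs5, Kcnj8, Notch3, Abcc9, Higd1b and Myh11. Each also had 0 UMIs of Rbfox3 (neurons), Pecam1 (endothelium), Ptprc (leukocytes) and Ncmap (myelinating Schwann cells). They made up 2.88% (2.64 to 3.12, exact Clopper-Pearson 95% interval) of the 19267 DRG barcodes in that depth range.

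The study sequenced 3 droplet libraries of C57BL/6 mice, 1 per group, each from pooled animals. The DRG library came from 18 ganglia of 6 mice, spanning L4 to S1, that had received 5 µL of the viral vector AAV-PHP.S-tdTomato in the left Achilles tendon sheath at 4 weeks of age and were taken 4 weeks later. One label calls the injected agent a lentivirus, and the sources differ on whether ganglia of both sides or of the injected side only were taken. Both tendon libraries came from the Achilles tendons of 5 mice after 4 weeks of dorsiflexion immobilization, which holds the tendon under strain. One followed a sham exposure of the nerve and the other a sural nerve neurectomy made 1 week before immobilization. The ages of the tendon mice were not given in the sources used here. DRG cells were released with papain, collagenase A and dispase and enriched on an Optiprep gradient, and tendon cells with collagenases and dispase. With 1 library per group there is no replicate of animals, so no p-value is given, every value describes these libraries, and intervals cover counting error only.

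Mural cells sit on the outer wall of blood vessels: pericytes on capillaries, embedded in the basement membrane they share with the endothelium, and smooth muscle cells on arterioles, arteries and veins. Endothelial PDGF-B, acting on the receptor Pdgfrb, recruits them, and Notch3 signalling maintains the smooth muscle of arteries. Smooth muscle contracts through actin, myosin and calcium entry and relaxes through nitric oxide and cyclic GMP. Vessels of the DRG supply the cell bodies of sensory neurons and are more permeable than those of the brain.

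The members held 1745993 UMIs, with a median of 2842 per barcode (1014 to 14477), against 3134 in the other DRG barcodes of the same depth range. A median of 6.40% of their UMIs came from mitochondrial genes, and 9 members were above 15%. The other libraries enter only for comparison: the same rule kept 105 of 14977 sham tendon barcodes in the depth range (0.701%) and 111 of 14050 neurectomy tendon barcodes (0.790%). Their mural barcodes held 545846 and 348540 UMIs. Of the 554 members, 13 shared a barcode sequence with a tendon library and 0 with a tendon mural barcode.

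Rgs5, an inhibitor of G protein signalling found in pericytes, had a UMI in 95.5% of members and in 2.72% of the other DRG barcodes in range. Notch3, the receptor of the mural lineage, was in 90.3% of members and 3.38% of the others. Myh11, the smooth muscle myosin heavy chain, was in 71.1% and 1.14%. These shares are what the rule selected on. Higd1b, a mitochondrial protein of the hypoxia-inducible family, was in 41.2% of members and 0.625% of the others. Abcc9 and Kcnj8, the sulfonylurea receptor and the pore of the vascular ATP-sensitive potassium channel, were in 36.8% of members and in 122 of the 554, respectively, and in 0.812% and 0.315% of the others.

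The rule sat on a shallow edge. Exactly 3 of the 6 markers were seen in 296 members, 4 in 210, 5 in 39 and all 6 in 9. Just outside, 202 barcodes with 2 markers resembled the 296 just inside in smooth muscle actin, Acta2, at 3932 and 4203 counts per 1000000 UMIs (CPM). They had more Apoe, a lipid carrier abundant in glia, at 7757 against 4310 CPM, and more of the fibroblast collagen Col1a1, at 514 against 157 CPM. A further 122 barcodes carried at least 3 markers and were left out for a UMI of an excluding gene. In 80 of them that gene was Pecam1, and those 80 had a median of 11071 UMIs. The depth limits removed 4 barcodes below 1000 UMIs and 1 above 15000, and 45 members lay under 1500 UMIs.

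Markers of other cell types were low in most members. Over 57 such genes the median member had 0.0844% of its UMIs, against 2.39% in the other DRG barcodes. The 57 were neuronal, satellite glia, myelinating Schwann, endothelial, leukocyte and red cell genes, without the fibroblast list and without Apoe, Glul and Ednrb. They held Rbfox3, Pecam1, Ptprc and Ncmap, which the rule set to 0 in members. Of the endothelial list, Cldn5 and Tie1 were at 0, as was Pecam1 by the rule. The 10 genes summed to 92.8 CPM, against 12304 CPM in 515 barcodes gated as endothelial. This gate and those of fibroblasts and satellite glia were set on markers of their own type. Their high sums are partly fixed by that choice. Of the fibroblast list, Dpt, Clec3b and Pi16 were at 0 and the 13 genes summed to 999 CPM, against 57899 CPM in 1239 barcodes gated as fibroblasts. The 8 satellite glia genes summed to 6213 CPM, against 96740 CPM in 5171 barcodes gated as satellite glia, and 0 of the 8 was at 0. In 17 members at least 1% of UMIs lay on the 57 genes, and the highest share was 26.9%, on hemoglobin genes. Without those 17, Apoe read 1821 CPM in place of 4971, Fabp7, the glial fatty acid carrier, 73.8 in place of 627, and the globin Hbb-bt 1.84 in place of 337. Fibroblast genes had no part in this cut, and their list then summed to 1060 CPM in place of 999.

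In a clustering of the DRG library into 39 clusters, 512 of the 554 members fell into a pair of them. Cluster 12 held 269 members among 398 barcodes and was led by Acta2, Myh11, Crispld2, Tagln and Tpm2. Cluster 15 held 243 among 361 and was led by Il6, Ifitm1, Pi15, Rgs5 and Abcc9. Cluster 27 held 27 members among 127 barcodes and was led by Sfrp2, Slc7a11 and Coch. It carried 133 of the 137 UMIs of Coch, an extracellular matrix protein, and 160 of the 193 UMIs of the matrix protein tenascin C, Tnc. Scrublet, which scores likely doublets, marked 19 of the 545 members it scored (3.49%), against 2.46% of the library.

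**Figure D1:**
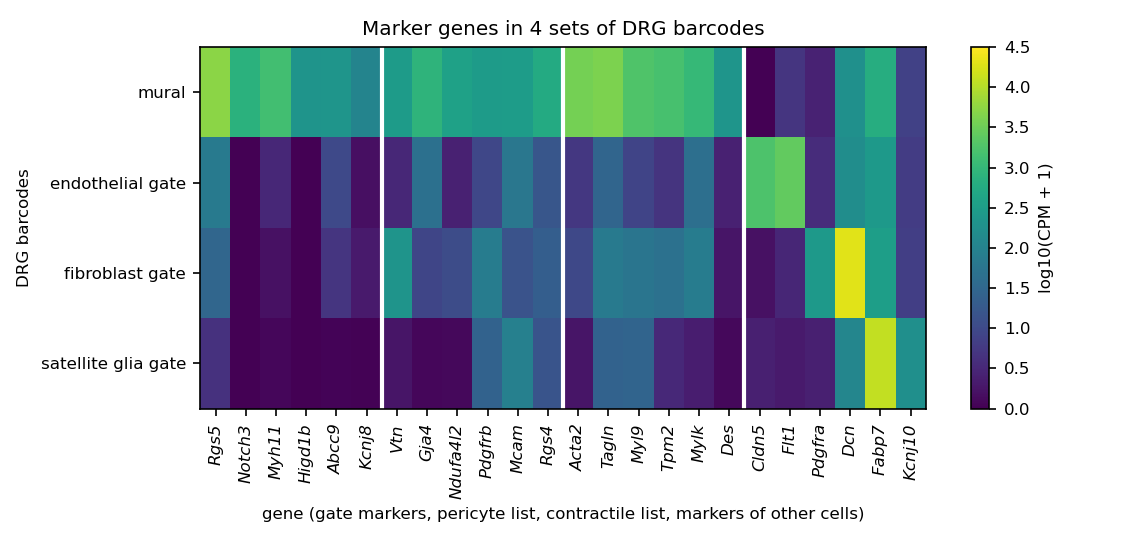
Summed expression of 24 genes in the 554 mural barcodes and in the endothelial, fibroblast and satellite glia gates of the DRG library, as color on a scale of log10(CPM + 1). The 6 gate genes, the pericyte list and the contractile list are brightest in the mural row, and the markers of other cells in the row of their own gate, as with Dcn at 19571 CPM in the fibroblast gate.

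A gene was compared where its summed count over both sides was at least 50 and its level at least 20 CPM in the higher side, and ratios carry exact conditional 95% intervals. Of 7666 genes compared between the members and the other DRG barcodes, 521 (6.80%) were at least 4-fold higher, 1160 (15.1%) at least 2-fold higher, while 1776 (23.2%) were at least 2-fold lower in the members. The rule used this contrast, so these counts only describe it. Of 18 pericyte genes compared, 5 of them gate genes, 16 were at least 4-fold higher, with a median log2 ratio of 4.86 against -0.18 over all genes. Outside the 6 gate genes, the largest ratio belonged to Rbm24, an RNA-binding splicing factor of muscle, at 174 against 1.59 CPM, 109-fold (87.9 to 137). Cysltr2, a receptor for cysteinyl leukotrienes, was at 133 against 1.41 CPM, and Gper1, a G protein-coupled receptor that responds to estrogen, at 257 against 3.50 CPM. Pdlim3, a Z-disc protein, was 86.0-fold (67.1 to 111) higher and Map3k7cl 75.2-fold (63.9 to 88.6) higher. Ano1, the calcium-activated chloride channel, was 68.4-fold (57.4 to 81.6) higher and Trpc6, a cation channel, 60.0-fold (50.2 to 71.8) higher.

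Of 11 mitochondrial isoform and hypoxia genes compared with the other DRG barcodes, 3 were at least 4-fold higher, against 6.80% of all genes. They were Ndufa4l2, Cox4i2 and the rule gene Higd1b, and the list had a median log2 ratio of 1.00. Ndufa4l2 was at 379 CPM in the members, 4.90 in the other barcodes, 1.60 in the endothelial gate and 10.3 in the fibroblast gate. Cox4i2, a subunit of cytochrome c oxidase, was at 278, 5.73, 3.47 and 3.63 CPM in the same order. In all, 58.5% of members had a UMI of Ndufa4l2 and 50.5% one of Cox4i2, against 1.22% and 1.75% of the others. In sham tendon mural barcodes Ndufa4l2 was near the DRG level, at 335 against 417 CPM on matched genes. The gap junction gene Gja4, whose connexin couples mural and endothelial cells, was at 843 CPM in members and 45.3 CPM in the endothelial gate. The hypoxia factor Epas1 was shared with endothelium, at 533 and 648 CPM. Art3 was the 1 pericyte list gene at least 2-fold lower in members, at 103 against 283 CPM.

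Contractile genes ranged widely among the members. Of 20 contractile genes compared with the other DRG barcodes, 18 were at least 4-fold higher, against 6.80% of all genes. The 18 include the rule gene Myh11, and the list had a median log2 ratio of 4.78. Acta2 was at 3681 against 58.3 CPM, the actin-binding Tagln at 4056 against 159.7, and the myosin light chain Myl9 at 1829.9 against 72.8. A UMI of Acta2 was in 59.4% of members and 1.78% of the other DRG barcodes. The share of a barcode's UMIs on the contractile list, read as a score, ran from 0 to 6.94% with a median of 1.18%. Cut into tertiles, the 184 members of the lower tertile had a median share of 0.437% and the 184 of the upper tertile 3.40%. The cuts at 0.633% and 2.45% divide a score and not types: 43 and 52 members lay within 10% of them. The distribution dipped between its ends, with 138 members from 0.5% to 1%, 32 from 1.5% to 2% and 52 from 3% to 3.5%.

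**Figure D2:**
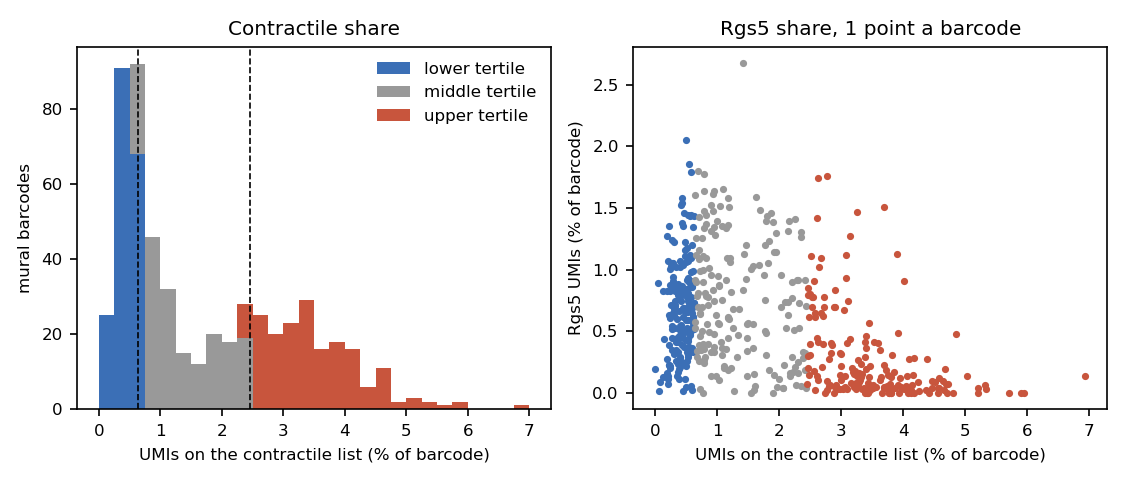
Left, number of mural barcodes by the contractile score (percent of a barcode's UMIs on the contractile list) in bins, colored by tertile, with the cuts at 0.633% and 2.45% as dashed lines. Right, the share of a barcode's UMIs on Rgs5 against the same score, 1 point per barcode: barcodes are most frequent below 1% and again between 2.5% and 3.5%, with fewer between, and many upper-tertile barcodes lie near 0 for Rgs5.

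The tertiles also differed in measures the score did not use. The median UMIs were 2121.5, 2723.5 and 3383 in the lower, middle and upper tertile, and the mitochondrial share 4.64%, 5.84% and 9.67%. Members with at least 1% of UMIs on the 57 markers of other cell types numbered 11, 5 and 1. The satellite glia list summed to 13433, 7020 and 462 CPM, the endothelial list to 217, 84.9 and 13.5 CPM and the fibroblast list to 1305, 1719 and 129 CPM. In the typical lower-tertile barcode these were small: the median share was 0.113% for the satellite glia list and 0 for the endothelial and fibroblast lists. Cluster 12 held 178 of the 184 upper members and cluster 15 held 168 of the 184 lower members. The part of depth, mitochondrial share and these markers in the differences below was not tested, except where values within depth classes or without fibroblast markers are given.

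Between the upper and lower tertile, 554 of 3790 genes outside the score (14.6%) were at least 2-fold higher in the upper tertile and 708 (18.7%) at least 2-fold lower. The pericyte list did not move as a block: 3 of 16 genes were at least 2-fold higher, while 7 were at least 2-fold lower in the upper tertile, with a median log2 ratio of 0.16 against -0.05 over all genes. Kcnj8 was at 252, 96.3 and 8.97 CPM in the lower, middle and upper tertile, a log2 ratio of upper over lower of -4.81 (-6.29 to -3.65). Abcc9, its partner in the same channel, was at 553, 184 and 17.9 CPM, a log2 ratio of -4.95 (-5.92 to -4.12). Vtn, the adhesive protein vitronectin, was at 581, 349 and 40.4 CPM. Split at the members' median depth, the log2 ratio of Kcnj8 was -3.41 among the deeper barcodes. Among the shallower it was at most -3.23, a bound from 0 UMIs in the upper tertile, set to 3 UMIs. The log2 ratio of Abcc9 was -6.00 among the shallower and -3.42 among the deeper barcodes.

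Other mural genes differed less along the score, in either direction. Higd1b was at 202, 229 and 205 CPM, and Notch3 at 633, 797 and 819 CPM. Rgs5 read 6185, 7010.1 and 2761 CPM, a log2 ratio of -1.16 (-1.25 to -1.08). Gja4 went the other way, at 510.4, 787 and 1124 CPM. The PDGF receptor Pdgfrb was at 450.1 CPM in the lower and 191 CPM in the upper tertile. Kcnj8, Abcc9, Rgs5, Higd1b and Notch3 belong to the rule that chose the members, and so does Myh11, a score gene. A barcode without Myh11 needed 3 of the other 5 genes to be chosen, so the values of rule genes along the score are a description only.

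**Figure D3:**
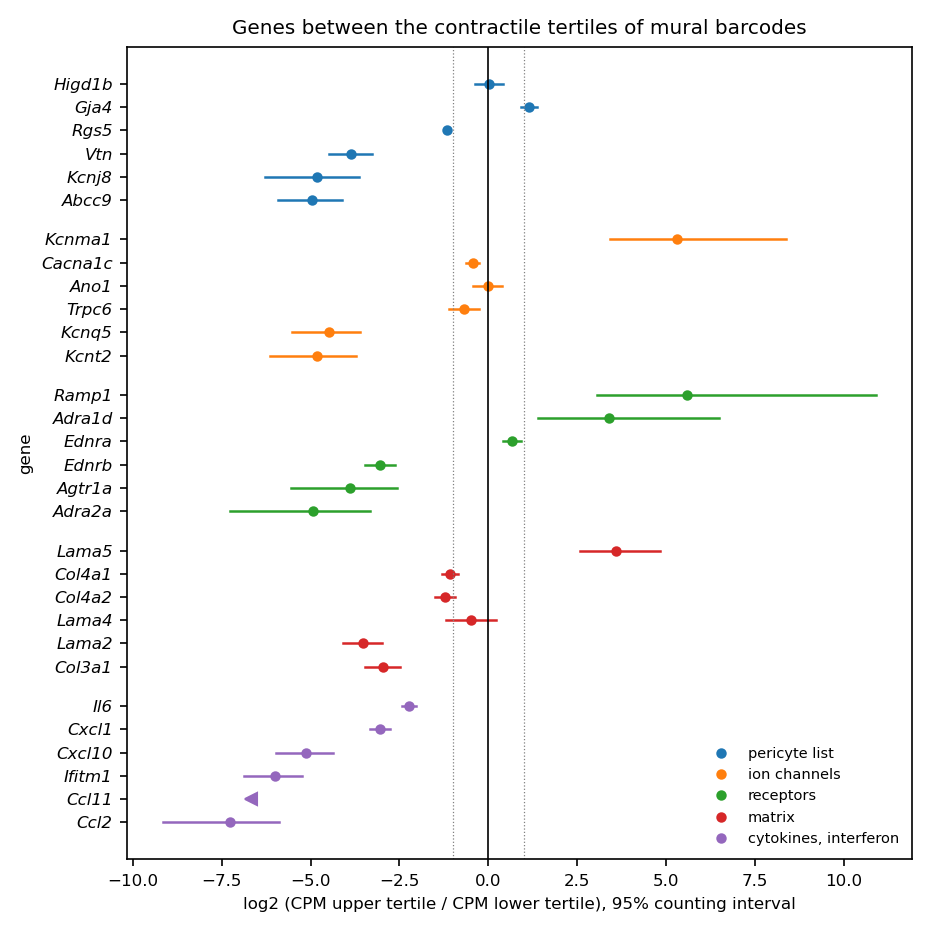
Log2 ratio of summed CPM, upper over lower tertile of the contractile score, for 30 genes in 5 groups; points are ratios, bars exact 95% counting intervals, the arrowhead a bound for a gene with 0 UMIs in the upper tertile, and dotted lines 2-fold. The cytokine and interferon genes all lie left of 0 and the other groups on both sides: in the pericyte list Gja4 lies at 1.14 and Abcc9 at -4.95.

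Outside the score, the genes highest in the upper against the lower tertile included regulators of smooth muscle. Myocd, the coactivator of serum response factor that drives smooth muscle genes, was at 4.31, 78.4 and 226 CPM, 52.4-fold (14.3 to 437) higher in the upper than in the lower tertile. Its partner Srf was at 45.2, 44.1 and 53.8 CPM, level within counting error. Cdc42ep3, a binding partner of the GTPase Cdc42, had a log2 ratio of 6.19 (4.32 to 9.24), and the tetraspanin Tspan2 5.81 (3.29 to 11.13). Bmp6, a bone morphogenetic protein, was at 2.15 and 111 CPM, and Ntrk3, the neurotrophin-3 receptor, at 6.46 and 189.8 CPM. Rbm24 was 10.3-fold (5.98 to 19.1) higher in the upper tertile and Map3k7cl 16.9-fold (9.56 to 33.2) higher.

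Serum response factor binds the CArG box, and promoters of 3 contractile genes held one within 250 bases before the start, on either strand and allowing 1 G or C in its A/T core. They are shown because these genes make up the score: the 10-base box is in capitals, and the sequences run 5′ to 3′ on the gene's strand, from the RefSeq promoter table of build GRCm38.p6. The Acta2 promoter (chr19:34255374-34255623, minus strand) held boxes 84 and 34 bases before the start, that of Myl9 (chr2:156775214-156775463, plus strand) 161 and 99, and 1 of 2 listed for Ldb3 (chr14:34588608-34588857, minus strand), which encodes a Z-disc protein, 109. From the other Ldb3 start the same box lies 35 bases away.
Acta2: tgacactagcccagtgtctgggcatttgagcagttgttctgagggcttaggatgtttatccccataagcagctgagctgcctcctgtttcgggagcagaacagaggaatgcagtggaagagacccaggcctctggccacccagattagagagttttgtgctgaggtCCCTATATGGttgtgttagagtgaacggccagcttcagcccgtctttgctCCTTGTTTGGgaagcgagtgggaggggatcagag
Myl9: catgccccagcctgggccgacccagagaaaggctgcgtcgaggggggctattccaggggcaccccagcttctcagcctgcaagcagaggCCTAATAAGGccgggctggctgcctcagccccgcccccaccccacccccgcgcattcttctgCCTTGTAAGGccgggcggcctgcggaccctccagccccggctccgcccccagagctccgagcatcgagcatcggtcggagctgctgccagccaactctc
Ldb3: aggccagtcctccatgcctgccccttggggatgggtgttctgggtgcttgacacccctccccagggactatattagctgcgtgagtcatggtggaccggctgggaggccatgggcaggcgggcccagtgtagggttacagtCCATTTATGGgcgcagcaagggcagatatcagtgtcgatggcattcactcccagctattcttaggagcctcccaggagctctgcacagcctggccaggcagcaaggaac
Such a box was in 3 of the 17 contractile genes with a promoter in the table (17.6%), in 0 of 15 pericyte genes, in 3 of 15 mural transcription factors (20.0%), in 3 of 24 ion channels (12.5%) and in 2643 of all 27025 genes (9.78%). It was in 12.9% of the genes at least 2-fold higher in the upper tertile, in 11.2% of those lower and in 9.82% of all genes compared. A match describes these letters only.

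Few receptors for vasoactive signals were seen at a level that could be compared. Of the 48 receptors listed only 13 reached the level for comparison with the other DRG barcodes. Among those, 7 were at least 4-fold higher in members, against 6.80% of all genes. Between tertiles 7 were compared: Ramp1 and Calcrl were at least 2-fold higher in the upper, against 14.6% of all genes, and Agtr1a, Ednrb and Adra2a at least 2-fold lower, against 18.7%. Ednra, the endothelin receptor of smooth muscle, was at 566 CPM in members, 14.1 in the others and 2.93 in the endothelial gate, with 422, 569.8 and 664 CPM over the tertiles. Ednrb, the other endothelin receptor, was high in the lower tertile, at 698, 331 and 85.2 CPM. Satellite glia express it as well, at 1105 CPM in their gate, and it is on their marker list. Among members with under 1% of UMIs on the 57 markers of other cells its log2 ratio was -2.96. Ednrb itself is not among the 57, and the part of glial RNA below that share was not tested. Agtr1a, the angiotensin II receptor, was at 109.8 and 7.47 CPM. Of noradrenaline receptors, Adra2a was at 138 CPM in the lower and 4.48 CPM in the upper tertile. Adra1d, with 41 UMIs in all, was at least 2-fold higher in members than in the other DRG barcodes. Between tertiles it was below the level for comparison.

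Ramp1, which with Calcrl forms the receptor for calcitonin gene-related peptide, was at 2.15, 24.5 and 103 CPM, a log2 ratio of 5.58 (3.06 to 10.91). Calcrl itself was at 25.8, 60.4 and 105 CPM. Both were higher in the contractile members, and the endothelial gate had 667 CPM of Calcrl and 4.27 CPM of Ramp1. Npy1r, the receptor for the sympathetic cotransmitter neuropeptide Y, was at 97.9 CPM in members and 8.42 CPM in the others, and level across tertiles at 99.1 and 109 CPM. Pth1r, the parathyroid hormone receptor, was at 38.9 against 2.18 CPM.

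Of 29 ion channel genes compared with the other DRG barcodes, 20 were at least 4-fold higher, against 6.80% of all genes. The 20 include the rule genes Kcnj8 and Abcc9, and the list had a median log2 ratio of 2.99. Cacna1c, the pore of the L-type calcium channel, was at 862 CPM in members and 49.7 CPM in the others, and at 1040.1 and 764 CPM in the lower and upper tertile. Its beta subunit Cacnb2 was at 520.05 against 10.5 CPM. Between tertiles 6 of 22 channels were at least 2-fold higher in the upper, against 14.6% of all genes, and 6 at least 2-fold lower, against 18.7%; of the 6 lower, Kcnj8 and Abcc9 are rule genes. Kcnma1, the large calcium-activated potassium channel, was at 4.31, 32.7 and 170.4 CPM, and the stretch- and heat-sensitive Trpv2 at 60.3, 137 and 387 CPM. Kcna5, below the level for comparison between tertiles, had 0 UMIs in the lower tertile and 45 in the upper. Lower along the score were Kcnq5, at 368 and 16.4 CPM, and Kcnt2, at 293 and 10.5 CPM. Among potassium channels outside the rule, Kcnq5 and Kcnt2 lay at one end of the score and Kcnma1 at the other. Ano1 was level at 185, 217 and 182 CPM.

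Genes of the nitric oxide and cyclic GMP list were present at both ends of the score. Of 13 compared, 12 were at least 2-fold and 9 at least 4-fold higher in members than in the other barcodes. The shares over all genes were 15.1% and 6.80%. The list also holds Rock1, Rock2 and Ppp1r14a, so its counts are not of relaxing genes only. Prkg1, the cyclic GMP-dependent kinase, was at 3960.5 against 416 CPM and at 4044, 3725 and 4118 CPM over the tertiles. The guanylate cyclase subunit Gucy1b3, the nitric oxide sensor, was at 380.3 against 10.4 CPM and level over the tertiles at 409 and 379.6 CPM. The other subunit, Gucy1a3, was at 207 and 493 CPM. Pde3a, a phosphodiesterase, was at 1313 against 28.3 CPM, and Pde5a, the target of sildenafil, at 306 against 19.5 CPM. Ppp1r14a, an inhibitor of myosin phosphatase that favours contraction, was at 10.8 CPM in the lower and 265 CPM in the upper tertile. Of the 12 genes compared between tertiles, 3 were at least 2-fold higher in the upper, against 14.6% of all genes. At least 2-fold lower was 1, against 18.7%.

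Regulators that shorten G protein signals and small GTPases of the Rad family, which restrain L-type calcium channels, were abundant. Of 10 compared, 7 were at least 4-fold higher in members, among them the rule gene Rgs5, against 6.80% of all genes. Rgs7bp, a membrane anchor of RGS proteins, was at 71.1, 1006 and 1502 CPM over the tertiles, and Rgs16 ran the opposite way at 978, 516 and 61.3 CPM. Rgs4 was level, at 517, 493 and 637 CPM. The Rad-family genes Gem and Rrad were at 1248 and 988 CPM in members against 148 and 22.6 CPM in the others.

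Among 21 transcription factors compared, 17 were at least 2-fold and 12 at least 4-fold higher in members than in the other DRG barcodes. The shares over all genes were 15.1% and 6.80%. Tbx3 was at 162 against 5.10 CPM, and over the tertiles at 49.5, 157 and 245 CPM. The forkhead factor Foxf1 was at 81.3 CPM and was concentrated in the contractile members, at 12.9, 73.5 and 136 CPM. Foxc2 and Foxc1, forkhead factors of vessel development, were at 158 and 247 CPM and level over the tertiles. Foxs1 was at 101 against 5.58 CPM. Nr2f2, a nuclear receptor known for vein identity, was higher in the lower tertile, at 1038, 710.1 and 417 CPM, as was Ebf1, at 2147, 1401 and 867 CPM. Zic1, a zinc finger factor of the dorsal neural tube and of mesenchyme, had a UMI in 56.3% of members and 7.06% of the other DRG barcodes, and read 329, 346 and 336 CPM.

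Of the Notch pathway, 4 of 11 genes were at least 2-fold higher in members, among them the rule gene Notch3, and 1 at least 2-fold lower. The shares over all genes were 15.1% higher and 23.2% lower. Heyl, a Notch target of mural cells, was at 83.6 against 8.45 CPM, and the feedback gene Nrarp at 387 against 46.5 CPM, with 174, 359 and 559 CPM over the tertiles. The ligand Dll4 was endothelial, at 304 against 21.2 CPM. Among PDGF genes the ligands Pdgfa and Pdgfd were higher in the contractile members, Pdgfa at 228 and 583 CPM and Pdgfd at 43.1 and 673 CPM. Pdgfb, the ligand that recruits mural cells, was at 7.45 CPM in members and 88.3 CPM in the endothelial gate. The fibroblast receptor Pdgfra had 3 UMIs in all members.

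Of 21 vessel growth factor and receptor genes compared with the endothelial gate, 6 were at least 2-fold higher in mural barcodes, while 10 were at least 2-fold lower. Over all genes, 772 of 7192 genes (10.7%) were at least 4-fold higher in members, 1419 (19.7%) at least 2-fold higher, while 1446 (20.1%) were at least 2-fold lower. S1pr3, a receptor for sphingosine-1-phosphate, was at 352 CPM in members and 11.2 CPM in endothelium, and S1pr1, its relative, at 10.9 and 307 CPM. Angpt1, the angiopoietin that steadies vessels, was at 67.0 and 3.47 CPM. The endothelial VEGF receptor Flt1 was at 4.01 and 2636 CPM. Inhba, which encodes an activin subunit, had 0 UMIs in the lower tertile and 83.7 CPM in the upper.

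Basement membrane genes divided within the laminin family. Lama5 was at 17.2, 89.8 and 208 CPM over the tertiles and Lamb2 at 94.8, 202 and 317 CPM, both higher in the contractile members. Lama2 was lower there, at 564, 225 and 49.3 CPM, and so was Lamc3, at 196, 114 and 25.4 CPM. Among members with 0 UMIs of 12 fibroblast markers, Lama2 read 598 and 46.7 CPM in the lower and upper tertile, and Lamc3 230.3 and 27.0 CPM. The collagen IV chain genes Col4a1 and Col4a2 were at 659 and 419 CPM in members, against 450.5 and 293 CPM in the endothelial gate. Of 14 basement membrane genes compared between tertiles, 3 were at least 2-fold higher in the upper, against 14.6% of all genes. At least 2-fold lower were 7, against 18.7%, and the list had a median log2 ratio of -0.74.

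Most interstitial matrix genes lay far below their fibroblast level. Of 25 such genes, 5 were at least 2-fold higher, while 11 were at least 2-fold lower in members than in the other DRG barcodes. The shares over all genes were 15.1% higher and 23.2% lower. Against 1239 fibroblast-gated barcodes, where 482 of 7429 genes (6.49%) were at least 4-fold higher, 1033 (13.9%) at least 2-fold higher, while 1465 (19.7%) were at least 2-fold lower in members, Col1a1 was at 141 CPM in members and 3201 CPM in fibroblasts. Col3a1 was at 338 and 3862 CPM. Dcn, the proteoglycan decorin, was at 179 and 19571 CPM, and 12 barcodes held 96.8% of its 312 UMIs in members. Aspn, the proteoglycan asporin, was instead higher in members, at 308 and 179.7 CPM. Sparcl1 followed the score, at 338, 689 and 1683 CPM.

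Most genes of the cytokine and adhesion list, which also holds receptors, lay at the low end of the contractile score. Of 15 compared between tertiles, 0 were at least 2-fold higher in the upper tertile, against 14.6% of all genes. At least 2-fold lower were 12, against 18.7%. Among these 12, Ackr3, Il6st, Icam1 and Nfkbia do not encode cytokines. The list had a median log2 ratio of -2.23, against -0.05 over all genes. Il6, the inflammatory cytokine interleukin-6, was at 1122 CPM in members, 65.5 in the other DRG barcodes, 17.3 in the endothelial gate and 384 in the fibroblast gate. It was in 43.9% of members and 4.91% of the other DRG barcodes, and read 2110.3, 1107 and 449.9 CPM over the tertiles. Thinned to 1000 UMIs a barcode, Il6 was in 36.1% of members and 2.36% of the others, Cebpb in 93.1% and 28.1% and Zic1 in 28.3% and 2.66%. The neutrophil attractant Cxcl1 was at 1596, 958 and 194 CPM, and the monocyte attractant Ccl2 at 919.5, 753 and 5.98 CPM. Ccl11, the eosinophil attractant eotaxin, had 0 UMIs in the upper tertile and 457 CPM in the lower. Fibroblasts carried more Ccl2 and Ccl11 than members did, at 3131 and 2004 CPM. The order over the tertiles was the same among the 437 members with 0 UMIs of 12 fibroblast markers: Ccl2 read 1086 and 7.19 CPM in the lower and upper tertile, Ccl11 407 and 0, Cxcl1 1639 and 153 and Il6 2444 and 421. The log2 ratio of Ccl2 was -6.72 among the shallower and -6.11 among the deeper barcodes.

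Il34, a ligand of the macrophage growth factor receptor, was at 233 CPM in members and 37.4 CPM in the others, with 342 and 112 CPM in the lower and upper tertile. Ifitm1, an interferon-induced membrane protein, was at 676 against 35.7 CPM and read 1339, 889.7 and 20.9 CPM. Of 16 interferon and antigen presentation genes compared with the other DRG barcodes, Ifitm1 was the 1 at least 2-fold higher in members. At least 2-fold lower were 6, with a median log2 ratio of -0.66 over the list. The shares over all genes were 15.1% higher and 23.2% lower. Between tertiles, 0 of 8 were at least 2-fold higher in the upper, against 14.6% of all genes. At least 2-fold lower were 5, against 18.7%.

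Immediate-early and heat shock genes, which many stimuli switch on within minutes, were led by Cebpb. This transcription factor of acute inflammation was at 6428 CPM against 692 CPM in the other DRG barcodes, 192 in the endothelial gate and 2757 in the fibroblast gate, and 98.2% of members had a UMI, against 49.6% of the others. It was higher along the score, at 3872, 6282 and 8337 CPM. In contrast, 11 of 22 genes of this list were at least 2-fold lower in the upper tertile, against 18.7% of all genes. Fos was at 4231, 2144 and 1257 CPM and the heat shock gene Hspa1a at 915, 387 and 224 CPM. Of the 22 genes, 8 were at least 2-fold higher in members than in the other DRG barcodes and 0 at least 2-fold lower. The shares over all genes were 15.1% higher and 23.2% lower.

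A large difference between tertiles could rest on few barcodes. Fabp7 had 1094 UMIs in 64 members, and 12 barcodes held 93.7% of them. It read higher in the lower tertile, by a log2 ratio of -6.83, but among the shallower barcodes the ratio was -0.47. Il6 was spread wider, with 21.4% of its 1959 UMIs in its top 12 barcodes. Ccl2 and Ccl11 lay between, with 43.8% of 892 UMIs and 53.2% of 483 UMIs in their top 12 barcodes. Ccl2 was seen in 134 members and Ccl11 in 97.

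Genes for neuronal growth factors were carried by these cells. Bdnf, brain-derived neurotrophic factor, was at 93.4 against 7.25 CPM. Fgf1 followed the score at 32.3, 109 and 311 CPM. Slit3, a guidance ligand, was at 324 against 28.6 CPM, and Sema5a at 283 against 138 CPM. Most of the list was not mural. Among 18 genes compared, 5 were at least 2-fold higher in members, against 15.1% of all genes. At least 2-fold lower were 11, against 23.2%, and the list had a median log2 ratio of -1.51. Ptn, pleiotrophin, was at 204 CPM in members, 2101 in endothelium and 3520.5 in satellite glia.

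The tdTomato vector was not seen in mural barcodes. A vector feature had a UMI in 0 of 554 members, with an exact Clopper-Pearson upper limit of 0.664%. The share was 0.673% (0.561 to 0.801) in the other DRG barcodes in range and 2.34% (1.57 to 3.34) in the fibroblast gate. In barcodes with a UMI of Rbfox3 it was 11.0% (9.90 to 12.1). The endothelial gate was at 0.194% (up to 1.08%), from 1 of 515 barcodes, and satellite glia at 0.464% (0.298 to 0.690). At this number of cells the members' share cannot be told from the endothelial and satellite glia gates or from the other DRG barcodes. The members' share lay below those of the fibroblast gate and of barcodes with an Rbfox3 UMI, beyond counting error. The part of depth in this was not tested.

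The same rule in the tendon libraries gave mural barcodes of another tissue. Gene levels in this comparison are counts per 1000000 UMIs on the 24017 genes matched by symbol or synonym between the tables, which held 91.0% of the members' UMIs. Of 6060 genes compared with sham tendon, 998 (16.5%) were at least 2-fold higher in DRG and 993 (16.4%) at least 2-fold lower. With every barcode thinned to 1000 UMIs, 629 of 2477 (25.4%) were higher and 260 (10.5%) lower. Against neurectomy tendon, 934 of 5733 (16.3%) were higher and 845 (14.7%) lower. Tissue, vector injection, immobilization, surgery, age, dissociation, gene annotation and the mice cannot be told apart here. Other cells' RNA differed with the tissue, here in CPM of all UMIs. The fibroblast list summed to 999, 7989 and 13924 CPM in DRG, sham and neurectomy mural barcodes, the tenocyte list to 23.5, 1504 and 2341 CPM and the endothelial list to 92.8, 566 and 1016 CPM. The other way, the satellite glia list summed to 6213, 242 and 852 CPM, the neuron list to 656, 75.1 and 123 CPM, the myelinating Schwann list to 604, 216 and 284 CPM and the red cell list to 1822, 97.1 and 1159 CPM. Their part in the differences below was not tested. The female-specific transcript Xist had 112 UMIs in sham, 281 in neurectomy and 1 in DRG mural barcodes, and Y-linked genes 97, 0 and 1645, so the sexes of the pooled mice differed between libraries. Annotation differed too: 104 genes at 100 CPM or more in the sham library were at least 20-fold lower in the DRG library, and 27 of 81 ribosomal protein genes were at least 2-fold lower in DRG mural barcodes.

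A count limited to genes at least 2-fold above the other barcodes of the library with the higher level, a limit chosen after the data were seen, leaves 1289 genes against sham. Of these 438 (34.0%) were higher and 276 (21.4%) lower in DRG, and against neurectomy 413 (39.0%) were higher and 88 (8.32%) lower of 1058. A gene enters through the library in which it is higher and against the other cells of that library, so this limit itself bears on the split and nothing is read from it. The libraries also differed in contractile score, with a median of 1.18% in DRG, 0.795% in sham and 0.479% in neurectomy mural barcodes. The score ranges of the DRG tertiles held 47, 21 and 37 sham barcodes and 68, 34 and 9 neurectomy barcodes, from low to high. Values within those ranges are therefore given for the genes named below.

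**Figure D4:**
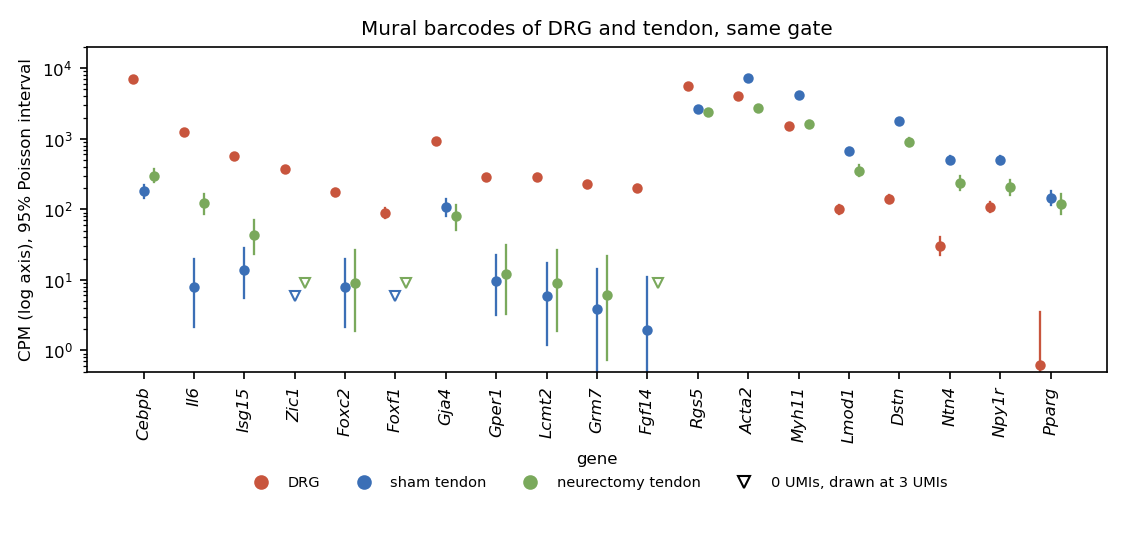
Summed expression (CPM on matched genes, log axis) of 19 genes in DRG (red), sham tendon (blue) and neurectomy tendon (green) mural barcodes, with exact Poisson 95% intervals cut off at the lower end of the axis; open triangles mark 0 UMIs and are drawn at the level of 3 UMIs. Cebpb to Fgf14 lie higher in DRG than in both tendon libraries and Lmod1 to Pparg lower, with Cebpb at 7062 CPM in DRG and 182 in sham.

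Several genes of inflammation and stress were higher in DRG mural barcodes than in both tendon libraries. Cebpb was at 7062 CPM in DRG, 182 in sham and 301 in neurectomy mural barcodes, 38.8-fold (31.6 to 48.1) and 23.4-fold (19.2 to 28.8) higher. Within the low, middle and high range it read 4212, 6819.7 and 9325 CPM in DRG, against 55.8, 210.04 and 218 in sham and 181, 451 and 356 in neurectomy. Il6 was at 1233 CPM in DRG, 7.83 in sham, where it had 4 UMIs, and 122 in neurectomy. Within the low range it read 2296, 9.30 and 181 CPM. Isg15, an interferon-induced ubiquitin-like protein, was at 562, 13.7 and 42.6 CPM. Outside the mural barcodes these genes were also higher in the DRG library. Isg15 was at 324 CPM of all UMIs in the other DRG barcodes and 24.6 CPM of matched genes in the other sham barcodes. Cebpb read 692 and 180 CPM and Il6 65.5 and 13.5 CPM, in the same order. The part of such library-wide differences was not tested. Of 22 immediate-early and heat shock genes 14 were at least 2-fold higher in DRG than in sham and 0 lower, with a median log2 ratio of 1.49 against -0.08 over all genes. Of 18 cytokine and adhesion genes 10 were higher and 2 lower, and of 11 interferon genes 9 were higher and 0 lower. The shares over all genes were 16.5% higher and 16.4% lower. Only 6 of these cytokine and adhesion genes were also at least 2-fold above the other barcodes of the library where they were higher. Of those 6, Il6, Cxcl1 and Osmr were at least 2-fold higher in DRG and 0 lower. Among the interferon genes only Ifitm1 met this limit. Of the 22 immediate-early and heat shock genes 7 met it, and all 7 were at least 2-fold higher in DRG. Against neurectomy fewer were higher: 12 of 22 immediate-early and heat shock genes, with Egr1 lower, and 5 of 11 interferon genes. Of 17 cytokine and adhesion genes 6 were higher, with Cxcl12 lower and a median log2 ratio of 0.57.

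Zic1 had 0 UMIs in the mural barcodes of either tendon library and 371 CPM in DRG, at least 63.2-fold higher than sham and at least 40.6-fold higher than neurectomy. Foxf1 also had 0 UMIs in both, against 89.3 CPM, and Foxc2 was at 174, 7.83 and 9.14 CPM in DRG, sham and neurectomy. Within the high score range Foxc2 read 179 CPM in DRG, 13.6 in sham and 16.2 in neurectomy. Not every mural factor was higher in DRG. Ebf2 was at 182, 626 and 618 CPM, and Prrx1, a factor of limb mesenchyme, at 160.5, 446 and 615 CPM.

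Of 17 pericyte genes 8 were at least 2-fold higher in DRG than in sham and 1, Slc38a11, at least 2-fold lower. The shares over all genes were 16.5% and 16.4%. Against neurectomy 6 were higher and 1, Abcc9, lower, with shares over all genes of 16.3% and 14.7%. Slc38a11 reversed with 4 markers. Kcnj8 was at 115, 72.4 and 174 CPM in DRG, sham and neurectomy, and Abcc9 at 240.4, 274 and 649 CPM. Rgs5, a rule gene like both of them, was at 5671, 2634 and 2391 CPM in DRG, sham and neurectomy, and Gja4 at 926, 108 and 79.2 CPM. The potassium channel subunit Kcne4 was at 377, 62.6 and 57.9 CPM. The neutral amino acid transporter Slc6a17 was at 174, 7.83 and 21.3 CPM, and the glucose transporter Slc2a3 at 219.6, 15.7 and 24.4 CPM. Of 8 RGS and Rad-family genes, 7 were at least 2-fold higher in DRG than in sham, against 16.5% of all genes. Gem was at 1371, 133 and 268 CPM. Gja4 within the high score range read 1257 CPM in DRG, 129 in sham and 81.0 in neurectomy. Lamc3 was at 112, 13.7 and 3.05 CPM.

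Contractile genes differed between the tendon libraries in their relation to DRG. Against sham, 1 of 20 compared, Actg2, was at least 2-fold higher in DRG, against 16.5% of all genes. At least 2-fold lower were 7, against 16.4%, and the list had a median log2 ratio of -0.59. Of these 8 contractile genes, Actg2, Ldb3 and Smtn reversed with 4 markers. The 61 UMIs of Actg2 in DRG lay in 11 of the 554 members. Against neurectomy 2 were higher and 2 lower, with a median of 0.23. High-range barcodes held 316583 of the 545846 sham UMIs, whereas the median score per barcode was higher in DRG. Lmod1, leiomodin of smooth muscle, was at 99.4, 673 and 353 CPM in DRG, sham and neurectomy, and within the high range 192, 1068 and 1328 CPM. Npy1r was at 108, 499 and 207 CPM, and Ryr2, the calcium release channel of the sarcoplasmic reticulum, at 28.3, 211 and 67.0 CPM. Pparg, the receptor of fat and vascular cells, had 39 UMIs in neurectomy and 74 in sham mural barcodes and 1 in DRG. In the low score range it read 344 CPM in sham and 131 CPM in neurectomy. Ntn4, a netrin, was at 30.2, 507 and 234 CPM.

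Positional genes set the tissues apart in a row of Hoxb genes. Of 18 Hox and limb genes compared with sham, 13 were at least 2-fold higher in DRG and 1 lower, with a median log2 ratio of 1.70. The shares over all genes were 16.5% higher and 16.4% lower. Hoxb2 was at 138 CPM in DRG and had 3 UMIs in sham and 1 in neurectomy, a ratio to sham of 23.5-fold (7.93 to 115). Hoxb3 was at 91.9 CPM with 2 and 1 UMIs in the tendon libraries, and Hoxb4 at 70.5 CPM with 2 and 2. Hoxb9 was at 52.9, 3.91 and 3.05 CPM. Hoxa10 and Hoxc9 were similar in the tissues, Hoxa10 at 49.1, 52.8 and 57.9 CPM and Hoxc9 at 26.4, 23.5 and 24.4 CPM. Shox2, a homeobox gene of limb growth, was below the level for comparison and is not among the 18. It read the reverse, with 0 UMIs in DRG mural barcodes against 70.5 and 94.4 CPM.

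**Figure D5:**
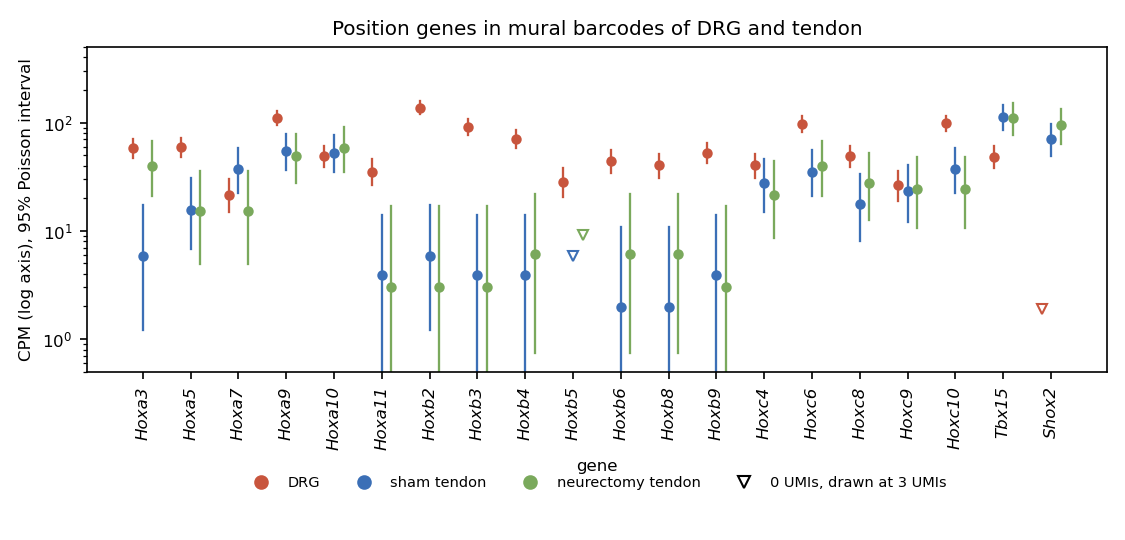
Summed expression (CPM on matched genes, log axis) of 20 positional genes in DRG (red), sham tendon (blue) and neurectomy tendon (green) mural barcodes, with exact Poisson 95% intervals cut off at the lower end of the axis; open triangles mark 0 UMIs and are drawn at the level of 3 UMIs. The Hoxb genes lie higher in DRG, Hoxa10 and Hoxc9 overlap between the libraries, and Tbx15 and Shox2 lie lower in DRG.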

How the data were processed

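UMI counts per gene and barcode were used as deposited for 3 libraries (1 per group). Per the file headers they were made with Cell Ranger 8.0.1, and the submitters' processing notes name the builds mm10 and GRCm39; which annotation release made each table is not given in the sources used here. Tables of DRG and tendon list 35980 and 33696 features, so the tissues were compared on 24017 genes matched by symbol or RefSeq synonym. Median depth was 3422 UMIs per barcode in the DRG, 1065 in the sham and 1212 in the neurectomy library.

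Counts were summed over barcodes and scaled to counts per 1000000 UMIs (CPM). Intervals are exact (Poisson, Clopper-Pearson, conditional binomial) at 95% and cover counting error only. A level of 0 UMIs was set to 3 UMIs for a bound. Clusters came from barcodes of 500 genes or more and a mitochondrial share up to 15% (scanpy 1.11.5, 2000 variable genes, 30 components, 15 neighbours, Leiden at resolution 1), and Scrublet scored doublets, which were kept. Shares in depth-matched form used 1000 UMIs per barcode. The ratio calls were tested on simulated data.

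Members, gene lists and comparators were chosen with earlier results of these data known. Genes are named as the 6 highest of a list or its members at least 2-fold apart in a comparison, or where they lead a comparison (25 highest over other DRG barcodes, 20 each way between tissues, 15 each way between tertiles). Other genes named were chosen after their values were seen. Alternatives changed the number of markers, depth, mitochondrial filter, doublet removal, weighting, low-count filter and thinning. Some genes are not reported here.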

Additional observations from a re-analysis of the deposited data

How the results depend on the processing

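The limits are those of 1 library per group, shallow barcodes and a rule that reads its own markers. Requiring 4 of the 6 markers kept 258 barcodes in place of 554. The count of genes at least 4-fold higher than in other DRG barcodes stayed within 1.5 times of 521 under the alternatives run. Against sham tendon, 998 genes higher in DRG (16.5% of those compared) became 629 (25.4%) with every barcode thinned to 1000 UMIs and 438 (34.0%) among genes above the other barcodes of their own library. The 993 lower (16.4%) became 260 (10.5%) with thinning, 276 (21.4%) among genes above their own library, 461 (13.1%) with 4 markers and 2015 (22.3%) with a filter of 20 UMIs and 5 CPM. Between tertiles, 554 higher (14.6%) became 326 (15.2%) with 4 markers, 882 (13.6%) with the lower filter and 259 (18.3%) with thinning, and 708 lower (18.7%) became 368 (17.2%), 1377 (21.3%) and 301 (21.3%). Fewer genes reach the level for comparison with 4 markers or thinning. Of 142 listed or named genes between tertiles 1 reversed: Cxcl12 read 0.73 with 4 markers. Of 238 over other DRG barcodes 0 reversed. Of 203 against sham, log2 ratios reversed with 4 markers for Actg2 (-1.53), Cacna1d (0.05), Foxd1 (-0.03), Kcna5 (0.93), Ldb3 (0.41), Slc38a11 (0.23) and Smtn (0.13). With thinning they reversed for Actg2 (-0.95), Fbln5 (-0.88), Foxd1 (-0.04), Hey2 (0.51), Mdk (-0.37) and Smtn (0.01). Col8a1 read 0.05 with 2 markers. Fbln5 read -1.52 without barcodes marked by Scrublet and -1.08 as a mean over barcodes. It read -0.82 over members with under 1% of UMIs on the 57 markers of other cells. That alternative was chosen after the data were seen. The cause was not tested. Ratios moved by over 1.5 times with 4 markers in 62 of the 238, 58 of the 142 and 119 of the 203 genes, and with thinning in 46, 58 and 106. No paired analysis was possible because each group is 1 library.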
